A study of Mus musculus with 18 samples.

Results

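The 7 genes described here are the genes of iron handling that the study picked out because their expression was elevated in follicular B cells lacking endophilin A2. They are Ftl1, Trf, Slc40a1, Slc11a1, Lcn2, Ltf and Slc39a11, and they are 7 of the 51912 genes in the expression table. Because they were chosen on their values in follicular Sh3gl1-/- and WT cells, that difference is given below as a description without a test. Their levels across cell states, and the effect of genotype in the other states, were not part of the choice.

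RNA sequencing covered 18 libraries of mouse C57BL/6 B cells in 6 groups of 3. The genotypes were wildtype (WT, littermates of the knockouts according to the study) and Sh3gl1-/- (KO), a germline deletion of the gene for endophilin A2, a membrane-bending protein of endocytosis. Because the deletion is present in every cell of the mouse, a difference between KO and WT B cells can also come from other cells. The states were transitional B cells and follicular B cells, both untreated and taken ex vivo, and follicular B cells treated with CD40L, the T-cell ligand of the receptor CD40, for 14 h according to the labels. The study's methods describe this culture as overnight, while its figure legends give a longer time. Its methods give CD93-positive and CD93-negative B220-positive gates for transitional and follicular cells, and removal of CD43-positive cells before culture. The study's legends give 3 mice of each genotype, while the labels tie no library to a mouse and give no age or sex. The p-values below therefore measure the spread between these libraries. It is not given in the sources used here whether libraries with the same number in different states came from the same mouse, so the states may not be independent of one another.

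Total expected counts ranged from 12404688 to 18366078 per library. Within a gene, levels are given in CPM, read counts scaled to the TMM-adjusted size of the library. On this scale a floor of 3 counts was worth from 0.176 to 0.240 CPM, depending on the library. A fold between states is the ratio of the counts summed over a group, each divided by the summed library sizes, and a fold between genotypes is a ratio of group means. Intervals and floors cover counting error only. The knockout was checked first. Sh3gl1 was at 40.4, 34.8 and 29.8 CPM in the WT transitional libraries against 0.410, 0.255 and 0.790 in KO. It was at 34.2, 35.1 and 33.6 CPM in WT follicular cells against 0.150, 0.191 and 0.0715 in KO. In CD40L-treated cells it was at 57.9, 53.6 and 56.8 CPM in WT against 1.41, 1.76 and 0.689 in KO. No KO library reached the lowest WT library, so all 18 genotype labels fit the gene. The cell labels were checked by markers. All 8 B-cell markers examined were detected in every group, and Rag1 and Rag2, recombinase genes of immature cells, were at 0 in all follicular and CD40L-treated libraries. The transitional markers Cd93, Cd24a and Vpreb3 were lower, and all 4 markers of follicular cells higher, in follicular than in transitional libraries (edgeR quasi-likelihood test, Benjamini-Hochberg adjusted p under 0.05). All 8 markers of CD40L-treated cells were higher after culture than in follicular cells by the same test.

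Cells take up iron bound to the plasma carrier transferrin through the transferrin receptor, store what they do not need inside ferritin, and release the rest through ferroportin. Macrophages of the spleen recycle the iron of old red cells and are rich in ferroportin and heme oxygenase, whereas neutrophils store iron-binding proteins in their granules and use them to keep iron from microbes. Of the 7 genes, Ftl1 encodes the ferritin light chain, Trf transferrin, Slc40a1 the exporter ferroportin and Slc11a1 the metal transporter NRAMP1 of the phagosome membrane. Lcn2 encodes lipocalin 2, which binds bacterial siderophores, and Ltf encodes lactoferrin, which binds iron itself. Slc39a11 encodes ZIP11, a member of the SLC39 family of zinc transporters.

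Some of these transcripts carry an iron-responsive element, a hairpin that iron regulatory proteins bind when iron is scarce. In the 5′ UTR it restrains translation, and in the 3′ UTR it protects the transcript from decay. The motif, a bulged C, any 5 bases and then the loop CAGTGN, was searched on the transcript strand of annotated UTRs (GENCODE M21, GRCm38), and 5 pairs, G-T pairs included, were required between the bases on either side of the loop for a full stem. The motif occurred in the 5′ UTRs of 12.3% of genes, and with the full stem of 5 pairs in 0.148%. In 3′ UTRs the shares were 35.9% and 0.614%. Of the 7 genes, Ftl1 and Slc40a1 held the motif with a full stem in the 5′ UTR. Slc11a1 held the motif in its 3′ UTR with 0 stem pairs, and the other members held no match. Of 45 further iron genes, any sites of Fech and Ftmt were left out of the listing, so these genes are not covered. Among the rest, a full stem was found in the 5′ UTR of Fth1, the ferritin heavy chain. Tfrc, the transferrin receptor, held full stems at 4 positions in its 3′ UTR. The sites of Ftl1, Slc40a1 and Fth1 and the first site of Tfrc follow, 5′ to 3′, as examples of the full stems found. Sites were listed only for the members and the iron genes other than Fech and Ftmt, and Alas2, named below, is not among them. Matches with fewer pairs were not counted, such as 1 in the 3′ UTR of Slc11a2 with 4 pairs, so other genes may also carry an element. Capitals mark the bulged C and the loop. They lie on GRCm38 at chr7:45459781-45459810 (Ftl1, minus strand), chr1:45925467-45925496 (Slc40a1, minus strand), chr19:9982729-9982758 (Fth1, plus strand) and chr16:32631216-32631245 (Tfrc, plus strand). A match is a description of the sequence, and RNA levels do not measure its effect on translation.
Ftl1: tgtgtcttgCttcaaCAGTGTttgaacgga
Slc40a1: ttccaacttCagctaCAGTGTtagctaagt
Fth1: ggtttcctgCttcaaCAGTGCttgaacgga
Tfrc: gataattatCggaagCAGTGCcttccataa

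Between genes, levels can be compared in the deposited TPM, which is scaled to transcript length. Ftl1 (ENSMUSG00000050708, chr7:45457944-45459884, minus strand) was the most abundant of the 7 in every group, with group means from 3273 TPM in WT follicular cells to 6777 TPM in KO CD40L-treated cells. In WT transitional cells Trf followed at 124.4 ± 42.3 TPM (SD, n = 3) and Slc40a1 at 59.8 ± 22.7 TPM, and these ranges overlapped. They were followed there by Slc11a1 at 11.6 TPM, Slc39a11 at 4.49 TPM, Ltf at 3.50 TPM and Lcn2 at 0.977 TPM, of which only Slc39a11 and Ltf overlapped as neighbours. In WT follicular cells the other 6 genes lay between 6.96 TPM for Trf and 1.01 TPM for Slc11a1, and every neighbouring pair below Ftl1 overlapped. In WT CD40L-treated cells Slc39a11 moved to the position below Ftl1 at 9.43 ± 4.63 TPM, with no overlap with Ltf at 1.303 TPM. Slc11a1 at 0.783 TPM and Lcn2 at 0.437 TPM came after it, each overlapping its neighbour above, and Slc40a1 at 0.00667 TPM and Trf at 0 TPM were last. In KO follicular cells Ltf, at 16.5 TPM, stood above Trf, at 11.6 TPM, and these overlapped. In KO transitional cells the neighbours overlapped from Slc11a1, at 14.8 TPM, down to Slc39a11, at 3.92 TPM, and in KO CD40L-treated cells from Ltf, at 5.39 TPM, down to Slc40a1, at 0.247 TPM. The plot of levels by library shows each gene on its own axis.

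**Figure D1:**
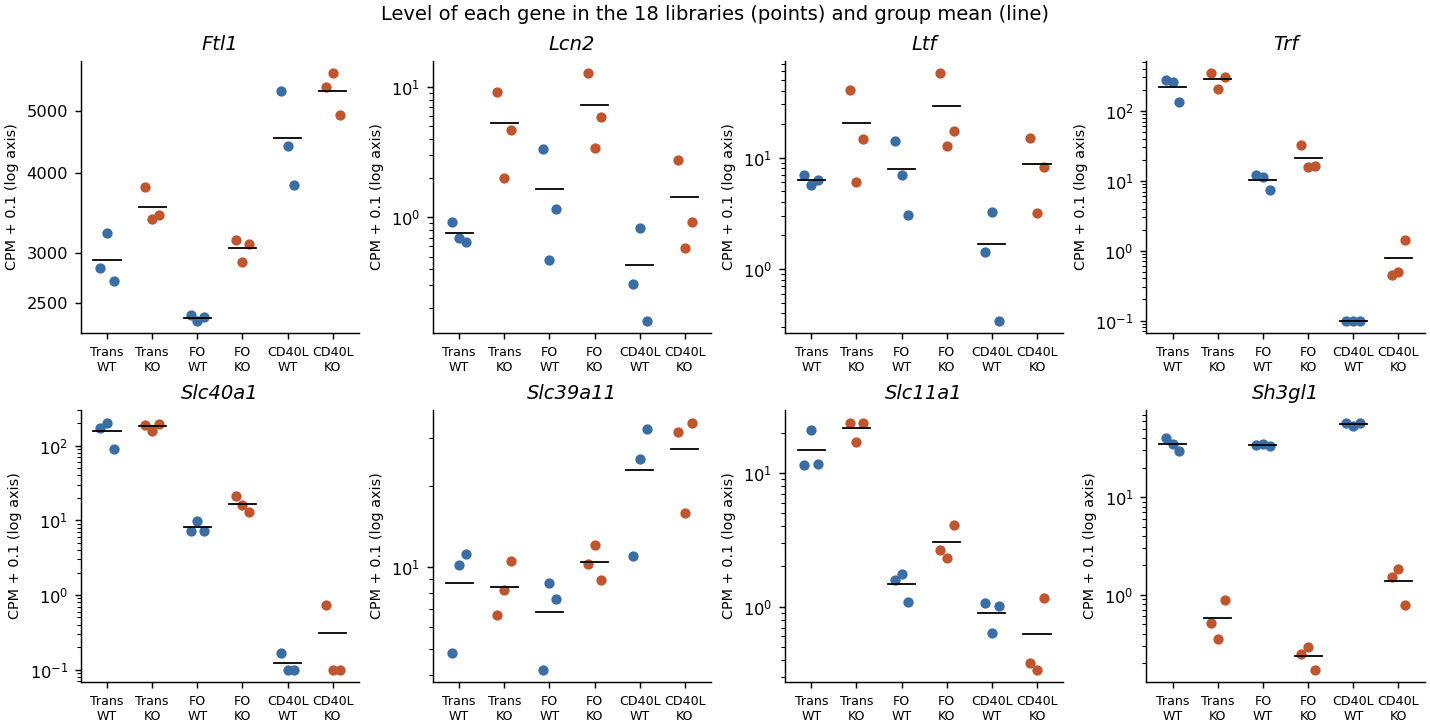
Level of each of the 7 genes, and of the deleted gene Sh3gl1, in CPM with 0.1 added, on a log axis, in the 18 libraries (points, 3 in each group) with the mean of each group as a line; groups are the 3 states, each as WT and KO. Trf and Slc40a1 drop from over 90 CPM in transitional cells to at most 1.32 CPM after CD40L culture, while Ftl1 and Slc39a11 have their highest group means after CD40L culture.

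The states were compared over both genotypes in an edgeR quasi-likelihood fit of all 18 libraries, in which 15117 genes were tested and p-values adjusted by the Benjamini-Hochberg method. The 3 comparisons share libraries, and the pair that includes follicular cells uses the libraries on which the genes were chosen, although averaged over genotype. The fit and its p-values do not use the pairing by number of transitional with follicular libraries described in the processing section. A fit with that pairing as a block changed no call of a member in that comparison. In follicular against transitional cells, 11.1% of all genes tested were higher and 13.2% lower. Of the 7 members, 0 were higher and 4 lower (Ftl1, Trf, Slc40a1 and Slc11a1), with a median log2 difference of -0.26 against 0.02 over all genes tested. In CD40L-treated against follicular cells, 28.8% of all genes were higher and 31.2% lower, and of the 5 members with counts in every group 2 were higher (Ftl1 and Slc39a11) and 3 lower (Lcn2, Ltf and Slc11a1). Trf and Slc40a1 had counts at or near 0 after culture and passed the filter through the other states, so they are described below by their counts and not counted as calls. The median over the 7 members was -2.04, the value of Ltf, against -0.06 over all genes, and it does not depend on the sizes fitted for Trf and Slc40a1, which by their counts lie below it. In CD40L-treated against transitional cells, a comparison with no library used in the choice, 29.5% of all genes were higher and 31.6% lower. The same 5 members again gave 2 higher and 3 lower, and the median over the 7 was -1.61, again the value of Ltf, against -0.01.

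**Figure D2:**
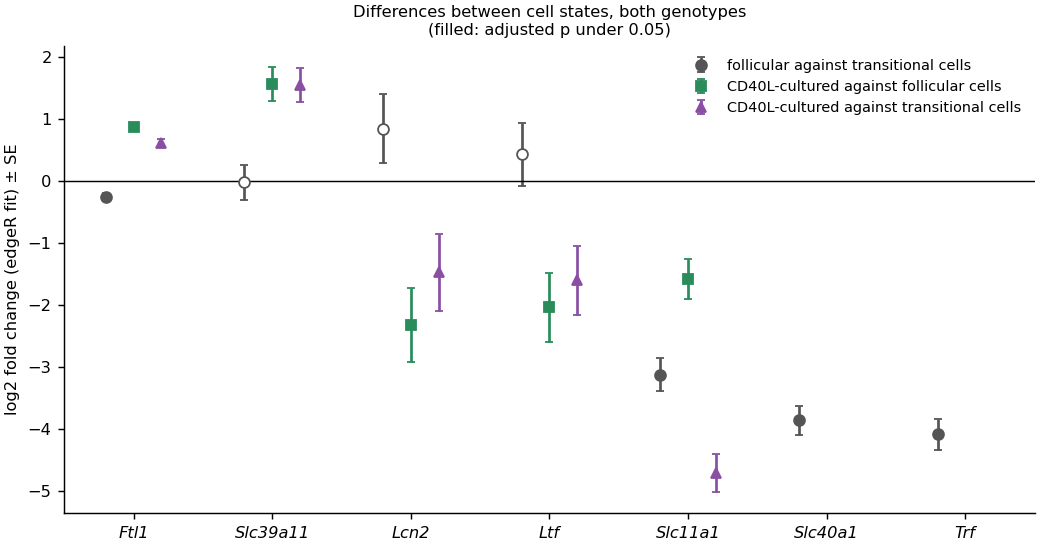
log2 fold changes of the 7 genes between cell states from the edgeR fit over both genotypes, with the standard error as bars; each colour is 1 of the 3 comparisons, and filled symbols have an adjusted p under 0.05. Trf and Slc40a1 are shown only for follicular against transitional cells, where they are lower by 4.09 and 3.87, because their other fitted fold changes rest on counts at or near 0; Ftl1 and Slc39a11 are the genes above 0 in both comparisons of CD40L-treated cells.

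The iron carrier and the 2 membrane transporters of iron were highest in transitional cells. In WT, Trf (ENSMUSG00000032554, chr9:103204001-103230444, minus strand) was at 273.5, 257.2 and 133.9 CPM in transitional cells, 12.1, 11.1 and 7.29 CPM in follicular cells and 0 in all 3 CD40L-treated libraries. In KO it was at 342.2, 202.2 and 305.7 CPM, then 31.9, 15.5 and 16.2 CPM, then 0.353, 0.399 and 1.32 CPM. The 3 states did not overlap within either genotype. Trf was 21.8-fold higher in transitional than follicular cells in WT (95% counting interval 19.9 to 24) and 13.7-fold higher in KO (12.8 to 14.6). Over both genotypes the log2 difference was -4.09 ± 0.25 (SE, edgeR adjusted p = 2.9e-08). Against the floor of 3 counts per library, WT follicular cells held at least 51.5-fold more Trf than CD40L-treated cells, and WT transitional cells at least 1125-fold more. In KO, where 31 counts remained after culture, the follicular level was 28.7-fold higher (20.0 to 42.4), and 55.6-fold higher without library 3 of KO CD40L-treated cells, which held 21 of the 31 counts. The readthrough gene Gm20425 overlaps Trf on the same strand and took 1791 counts over the 18 libraries, so some reads between the 2 genes may be split.

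Slc40a1 (ENSMUSG00000025993, chr1:45908068-45926523, minus strand) followed the same order of states. In WT it was at 175.4, 205.1 and 90.8 CPM in transitional cells, 7.06, 9.81 and 7.22 CPM in follicular cells and 0.0690, 0 and 0 CPM in CD40L-treated cells. In KO it was at 192.3, 160.3 and 195.0 CPM, then 21.3, 16.0 and 12.9 CPM, then 0.635, 0 and 0 CPM. Again no state overlapped another within a genotype. The transitional level was 19.6-fold the follicular level in WT (17.6 to 21.9) and 10.98-fold in KO (10.2 to 11.9), with a log2 difference over both genotypes of -3.87 ± 0.23 (edgeR adjusted p = 5.8e-09). After CD40L culture 1 count remained in WT, fewer than the floor of 3 counts. The ratio of follicular to CD40L-treated cells was 371 there, with a counting interval of 66.2 to 14700, and 9 counts remained in KO, all in 1 library, for a fold of 78.7 (41.2 to 172.9).

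Slc11a1 (ENSMUSG00000026177, chr1:74375195-74386062, plus strand) was at 11.4, 21 and 11.6 CPM in WT transitional, 1.49, 1.67 and 0.978 CPM in WT follicular and 0.966, 0.535 and 0.918 CPM in WT CD40L-treated cells. In KO the values were 23.7, 17 and 23.7 CPM, then 2.55, 2.23 and 4.01 CPM, then 0.282, 0.240 and 1.06 CPM. In CPM the 3 states did not overlap within a genotype, although the gap between the WT follicular and CD40L-treated libraries was narrow. In TPM follicular and CD40L-treated libraries overlapped in both genotypes. It was 10.4-fold higher in transitional than follicular cells in WT and 7.36-fold higher in KO. Over both genotypes the log2 difference was -3.13 ± 0.27 (edgeR adjusted p = 2.0e-07), and after CD40L culture it fell by a further 1.58 ± 0.32 relative to follicular cells (edgeR adjusted p = 0.00032). The latter rests on few reads, with 14, 8 and 15 counts in WT and 4, 3 and 17 in KO CD40L-treated libraries. The follicular level was 1.74-fold higher in WT (1.14 to 2.68) and 5.17-fold higher in KO (3.32 to 8.37).

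Markers of macrophages and monocytes varied between the states in the same order as these 3 genes. The summed level of 16 such markers, of which Lyz2 was the most abundant, was 890.8, 1082 and 787.9 CPM in WT transitional libraries and 1384, 832.1 and 1191 CPM in KO. It was 143.8, 158.2 and 184.8 CPM in WT follicular and 349.0, 155.2 and 286.3 CPM in KO follicular libraries. After CD40L culture it was 74.2, 103.1 and 100.2 CPM in WT and 84.4, 53.6 and 72.4 CPM in KO. In follicular against transitional cells 15 of the 16 were lower (edgeR, adjusted p under 0.05), the exception being Marco. The 15 include C1qc, Fcgr1 and Mertk, which were below the filter on low counts within follicular cells and are not read as calls. In CD40L-treated against follicular cells Lyz2, Spic, Cd5l and Ccr2 were lower by the same test, and Cd68 did not pass. Adgre1, which encodes the macrophage antigen F4/80, was 2.61 ± 0.22 higher on the log2 scale. The other markers were below the filter within CD40L-treated cells and passed it through other states, so they are not counted as calls. After culture C1qa, C1qc, Fcgr1, Mertk and Mrc1 were at 0 in WT, and C1qc, Marco, Mertk and Mrc1 at 0 in KO. Per 100 counts of this list, Trf had a median of 24.5 counts over the 6 transitional libraries, 7.71 in follicular and 0.209 in CD40L-treated libraries. Slc40a1 had medians of 17.7, 5.50 and 0 counts, and Slc11a1 of 1.82, 1.04 and 0.717 counts. The lowest transitional ratios of Trf and Slc40a1 were 17 and 11.5, against highest follicular ratios of 9.97 and 10.3. These ratios depend on Lyz2, which was lower in follicular than transitional cells by a log2 value of -1.13, less than most of the list, whose median was -3.16. Other markers, as examples and not the whole list, were at -3.92 (Vcam1), -4.72 (Mrc1), -3.54 (Cd14) and -3.43 (C1qb), while Marco did not pass. Trf and Slc40a1 were at -4.09 and -3.87. After culture Lyz2 was lower than in follicular cells by -3.77, while Cd68 (0.06) was not and Adgre1 was higher. The list sum thus weighs other markers there. The part of macrophages and monocytes in the differences was not tested, and in bulk samples a change in the number of cells of a type cannot be told apart from a change in RNA per cell.

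**Figure D3:**
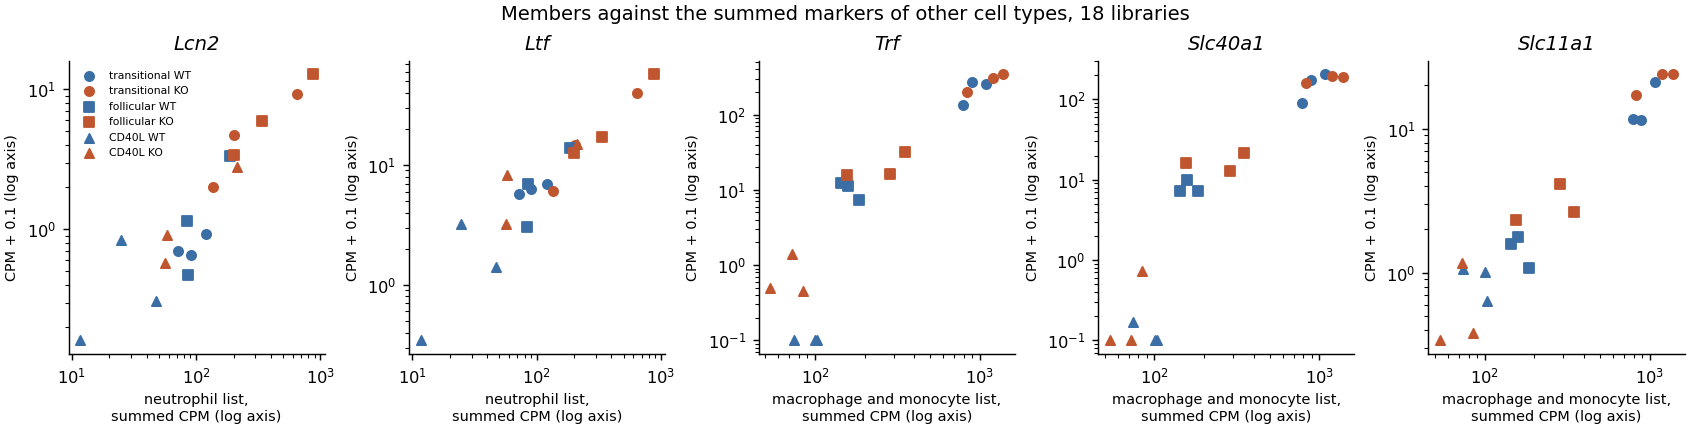
Levels of single members in CPM with 0.1 added (vertical log axis) against the summed CPM of the marker list of another cell type (horizontal log axis) in the 18 libraries; shape gives the state and colour the genotype. Lcn2 and Ltf are drawn against neutrophil markers, and Trf, Slc40a1 and Slc11a1 against macrophage and monocyte markers, where the transitional libraries form the upper right group and the CD40L-treated libraries the lower left.

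Within each genotype the genes of the 2 granule proteins had their lowest means after culture. Lcn2 (ENSMUSG00000026822, chr2:32384633-32388252, minus strand) was at 0.819, 0.595 and 0.552 CPM in WT transitional, 3.24, 0.370 and 1.05 CPM in WT follicular and 0.207, 0.735 and 0.0612 CPM in WT CD40L-treated cells. In KO it was at 9.19, 1.91 and 4.60 CPM, then 12.7, 3.32 and 5.79 CPM, then 2.68, 0.479 and 0.814 CPM. Transitional and follicular cells overlapped in both genotypes. The WT values rest on few reads, from 1 to 50 counts per library. Lcn2 differed between follicular and transitional cells by a log2 value of 0.85 ± 0.55 (edgeR adjusted p = 0.29) and was lower after CD40L culture than in follicular cells by -2.32 ± 0.60 (edgeR adjusted p = 0.0027). Against transitional cells it was lower by -1.48 ± 0.63 (edgeR adjusted p = 0.0497), a call that was lost in 9 of the 12 fits that left out 1 library.

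Ltf (ENSMUSG00000032496, chr9:111019271-111042767, plus strand) was at 6.83, 5.58 and 6.16 CPM in WT transitional, 13.9, 6.85 and 2.93 CPM in WT follicular and 1.31, 3.14 and 0.245 CPM in WT CD40L-treated cells. In KO it was at 40.0, 5.99 and 14.7 CPM, then 56.9, 12.6 and 17.1 CPM, then 14.9, 3.12 and 8.08 CPM. Library 1 of KO was the highest in all 3 states, and follicular and CD40L-treated libraries overlapped in both genotypes. Ltf did not pass between follicular and transitional cells (log2 0.43 ± 0.51, edgeR adjusted p = 0.58), and the difference changed sign to -0.07 without library 1 of KO follicular cells. After CD40L culture Ltf was lower by -2.04 ± 0.56 than in follicular cells (edgeR adjusted p = 0.0041) and by -1.61 ± 0.56 than in transitional cells (edgeR adjusted p = 0.019). The latter was lost without library 1 of KO transitional cells (log2 -1.12, adjusted p = 0.084).

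Neutrophil markers moved with these 2 genes. The summed level of 15 markers, of which Ngp was the most abundant, was 120.5, 72.1 and 90.8 CPM in WT and 642.3, 136.5 and 203.3 CPM in KO transitional libraries. In follicular libraries it was 186.7, 85.9 and 84.5 CPM in WT and 873.5, 200.7 and 338.3 CPM in KO, and after culture 47.2, 24.9 and 11.7 CPM in WT and 212.0, 56.5 and 58.0 CPM in KO. KO libraries were above all WT libraries in each state, and library 1 was the highest of the KO libraries in all 3. Of 13 tested markers, 0 differed between follicular and transitional cells and 12 were lower after culture than in either (edgeR, adjusted p under 0.05). The 12 include Elane, Mpo, Mmp9, Cxcr2, Csf3r and Fcnb, which were below the filter within CD40L-treated cells and are not read as calls. The defining marker Ly6g was at 0 in the WT follicular and WT CD40L-treated groups, and Cebpe in the WT transitional and KO CD40L-treated groups. Per 100 counts of the list, Ltf had a median of 6.5 counts in transitional, 6.39 in follicular and 6.27 in CD40L-treated libraries, within a range of 2.09 to 13.9. For Lcn2 the medians were 1.11, 1.55 and 1.06 counts. By genotype, the Ltf medians were 6.78 counts in WT and 6.22 in KO transitional libraries and 7.42 and 6.26 in follicular libraries. In CD40L-treated libraries they were 2.78 counts in WT, within 2.09 to 12.6, and 7.02 in KO, within 5.52 to 13.9, and these overlapped. The Lcn2 ratio ran from 0.609 to 0.827 in WT and from 1.40 to 2.26 in KO transitional libraries, where the WT values rest on 7 to 12 counts of Lcn2. In follicular libraries it ran from 0.431 to 1.73 in WT and from 1.45 to 1.71 in KO, and in CD40L-treated libraries from 0.439 to 2.96 in WT and from 0.849 to 1.40 in KO. The genotypes thus overlapped in follicular and CD40L-treated libraries and not in transitional ones. The part of neutrophil RNA in the differences was not tested.

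Ferritin light chain and the zinc transporter went the other way in culture. In WT, Ftl1 was at 2841, 3224 and 2714 CPM in transitional, 2394, 2351 and 2377 CPM in follicular and 5364, 4400 and 3829 CPM in CD40L-treated cells. In KO it was at 3793, 3385 and 3441 CPM, then 3144, 2902 and 3099 CPM, then 5452, 5715 and 4921 CPM. Within each genotype the follicular libraries were below, and the CD40L-treated libraries above, all transitional libraries. The follicular level was lower than the transitional level by a log2 value of -0.26 ± 0.07 (edgeR adjusted p = 0.011). CD40L-treated cells were 1.897-fold above follicular cells in WT and 1.75-fold in KO, a log2 difference of 0.87 ± 0.07 over both genotypes (edgeR adjusted p = 4.6e-09), and were above transitional cells by 0.61 ± 0.07 (edgeR adjusted p = 3.9e-07). In an exact permutation test within genotypes (two-sided), each of the 3 comparisons of Ftl1 gave p = 0.005, the smallest that the 400 arrangements allow. These arrangements treat libraries as independent and ignore the pairing by number of transitional with follicular libraries. Ftl1-ps1, a near copy that the annotation lists as protein coding and with which reads may be shared, had group means from 14.3 to 35.0 CPM and its highest level after CD40L culture as well.

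Slc39a11 (ENSMUSG00000041654, chr11:113244853-113650079, minus strand) was at 4.71, 10.1 and 11.1 CPM in WT transitional, 4.08, 8.64 and 7.52 CPM in WT follicular and 10.9, 24.9 and 32.2 CPM in WT CD40L-treated cells. In KO it was at 6.56, 8.16 and 10.4 CPM, then 10.2, 11.9 and 8.87 CPM, then 31.4, 15.8 and 34.1 CPM. CD40L-treated libraries lay above all follicular libraries of their genotype. Follicular and transitional libraries overlapped (log2 -0.02 ± 0.28, edgeR adjusted p = 0.97). After culture Slc39a11 was 3.42-fold above follicular cells in WT and 2.68-fold in KO, with a log2 difference of 1.57 ± 0.27 over both genotypes (edgeR adjusted p = 7.3e-05). The gene spans Cog1 on the other strand, which took 2869 counts in all, and whether strand was used in the counting is not given in the sources used here.

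Leaving out the library 1 of KO, the one highest in neutrophil markers, from the states compared kept the calls of the 5 members with counts in every group in both comparisons of CD40L-treated cells. In follicular against transitional cells it kept 3 of the 4, with Ftl1 at a log2 value of -0.26 and an edgeR adjusted p of 0.055.

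Of 45 further genes of iron metabolism, 36 could be tested between states. In CD40L-treated against follicular cells 11 (30.6%) were higher and 8 (22.2%) lower, against 28.8% and 31.2% of all genes tested, with a median log2 difference of -0.04 against -0.06. The 8 include Hfe and Slc39a8, which were at 0 or around the floor after culture and passed the filter through other states. These genes are described by their levels and not read as calls. The share of higher genes is near the background and that of lower genes below it, and neither is read as a result about the list. The storage, uptake and sensing genes named next were chosen after their values were seen. All 4 tested genes of iron storage were higher by the edgeR test. They were the iron chaperones Pcbp1 (0.92 ± 0.15) and Pcbp2 (0.23 ± 0.10), the ferritin heavy chain Fth1 (0.64 ± 0.25) and Ncoa4 (0.33 ± 0.13), the receptor that delivers ferritin for breakdown. Among the uptake genes Tfrc, the transferrin receptor, was higher by 0.93 ± 0.19 (edgeR adjusted p = 0.00037), and so was the metal importer Slc39a14 by 1.49 ± 0.27. Slc39a8, at 0.344 CPM in WT and 0.932 CPM in KO follicular cells, lay around the floor of 3 counts after culture. Of the sensing genes Aco1, which encodes iron regulatory protein 1, was higher by 1.19 ± 0.19, while Ireb2, for iron regulatory protein 2, Fbxl5, for the ligase that degrades it, and Hfe were lower. Hfe was at 0 in all 6 CD40L-treated libraries. In heme metabolism Alas1, the first enzyme of heme synthesis, was higher by 1.16 ± 0.13 (edgeR adjusted p = 4.2e-07), and Blvrb, a biliverdin reductase, lower by -1.38 ± 0.08. The mitochondrial iron importer Slc25a37 was lower by -2.15 ± 0.12 (edgeR adjusted p = 3.6e-11), from 68.1 ± 3.8 CPM (SD, n = 3) in WT follicular cells to 13.9 ± 4.1 CPM. Markers of red-cell precursors, in which heme synthesis and Slc25a37 are prominent, fell in the same comparison. The 4 globin genes were lower by log2 values from -5.43 to -5.62 and the heme enzyme Alas2 by -3.34 (edgeR, adjusted p under 0.05). Slc4a1 and Car1 were at 0 in all 6 CD40L-treated libraries and are not counted as calls. The summed level of these markers was 3870, 3579 and 1437 CPM in WT and 6607, 3011 and 9373 CPM in KO follicular libraries. After culture it was 6.90, 362 and 36.0 CPM in WT and 59.8, 115.3 and 31.9 CPM in KO. The part of red-cell precursors in the differences of the iron and heme genes was not tested.

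**Figure D4:**
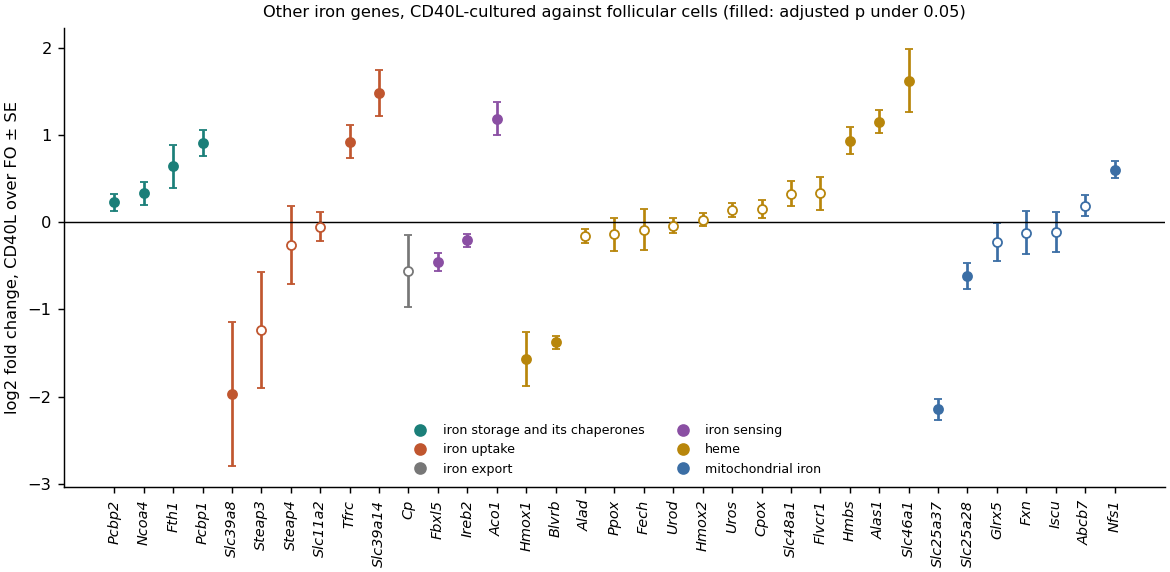
log2 fold changes (vertical axis, edgeR fit over both genotypes, bars are standard errors) of the other iron genes tested in CD40L-treated against follicular cells, coloured by the list of their function and filled where the adjusted p is under 0.05. Hfe, at 0 in all CD40L-treated libraries, is not drawn; the 4 storage genes are above 0, and Slc25a37 is at -2.15.

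In follicular against transitional cells, 4 (11.1%) of the 36 iron genes were higher and 10 (27.8%) lower, against 11.1% and 13.2% of all genes, with a median of -0.11 against 0.02. Cpox of heme synthesis (0.49, edgeR adjusted p = 0.0021), the iron chaperone Pcbp2 (0.34, adjusted p = 0.015) and Glrx5 of iron-sulfur cluster assembly (0.75, adjusted p = 0.023) had the lowest adjusted p-values among those higher. Heme oxygenase Hmox1 was lower by -3.39 (edgeR adjusted p = 8.9e-08), from 51.3 ± 28.8 CPM (SD, n = 3) to 4.34 ± 1.37 CPM in WT. Hfe was lower by -2.37 (edgeR adjusted p = 1.3e-05) and Fbxl5 by -0.77 (edgeR adjusted p = 3.3e-05). Most macrophage and monocyte markers fell in the same comparison, with a median of -3.16 over the list. That median includes C1qc, Fcgr1 and Mertk, which were below the filter within follicular cells. The part of these markers' cells in the differences of the iron genes was not tested. Against transitional cells, CD40L-treated cells had 12 iron genes (33.3%) higher and 14 (38.9%) lower, against 29.5% and 31.6% of all genes, with a median of -0.19 against -0.01. Hfe and Slc39a8 are not read as calls here either, for the reason given above. Pcbp1 (1.25) was among the higher genes, and Blvrb (-1.47), Slc25a37 (-2.21) and Hmox1 (-4.96) had the lowest adjusted p-values among the lower. In the family of Slc39a11, 11 of the 13 other members were tested. Of these, 2 were higher and 1 lower in follicular than transitional cells, against 11.1% and 13.2% of all genes. After culture 4 were higher and 1 lower than in follicular cells, against 28.8% and 31.2% of all genes. After culture 5 were higher and 1 lower than in transitional cells, against 29.5% and 31.6%. The 1 lower than in follicular cells was Slc39a8, which lay around the floor and is not read as a call. With 11 genes tested, these counts are not read as a result about the family. Slc39a4 gave the lowest adjusted p-value in both comparisons of CD40L-treated cells (3.67 and 3.05, edgeR adjusted p = 2.7e-08 against follicular cells), followed by Slc39a1 (0.91 and 0.97). Slc39a4 was at 0.520 ± 0.243 CPM (SD, n = 3) in WT follicular and 7.50 ± 1.39 CPM in WT CD40L-treated cells.

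The effect of genotype in follicular cells, which chose the genes, appears in the values above. The KO libraries lay above all WT libraries for 6 of the 7 genes, as they did for 8.07% of all 13610 genes tested. The edgeR test in this comparison called 0.845% of all genes and is not given for the members. Both shares are background only. Ltf was the gene whose libraries overlapped, with 12.6 CPM in the lowest KO and 13.9 CPM in the highest WT library. The mean of KO was 4.68-fold that of WT for Lcn2, 3.66-fold for Ltf, 2.13-fold for Slc11a1, 2.09-fold for Trf, 2.08-fold for Slc40a1, 1.53-fold for Slc39a11 and 1.28-fold for Ftl1. The values of the granule genes depended on library 1 of either genotype. Without that of KO, Lcn2 was at 2.93-fold and Ltf at 1.88-fold, and without that of WT they were at 10.2-fold and 5.90-fold. Markers of other cells differed between the same libraries. The median log2 difference of KO from WT was 1.99 over 13 neutrophil, 0.74 over 13 macrophage and monocyte, 1.08 over 9 erythroid and 0.80 over 10 T-cell markers tested, against 0.00 over all genes. Of these, the neutrophil marker Chil3 (2.01) and the T-cell receptor components Cd3e (1.37) and Cd3d (0.87) were called by edgeR (adjusted p under 0.05). The abundant neutrophil genes S100a8 (2.06) and Ngp (1.99) and the complement genes C1qa (1.05) and C1qb (1.03) were not. The macrophage markers Marco (-1.23) and Cd5l (-0.835) were lower in KO, and Adgre1 (-0.0059) hardly differed. The other tested macrophage and monocyte markers were higher, and none of the list was called. The summed T-cell markers were at 193.8, 230.9 and 218.6 CPM in WT and 348.7, 288.9 and 313.5 CPM in KO. The part of these cells in the differences of the 7 genes was not tested.

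In transitional cells, which were not part of the choice, 1 of the 7 genes passed. There 3.73% of 13774 genes tested were called, either higher or lower. Lcn2 was higher in KO by a log2 value of 2.98 ± 0.59 (edgeR adjusted p = 0.032), and its 3 KO libraries, at 9.19, 1.91 and 4.60 CPM, were above the 3 WT libraries, which reached at most 0.819 CPM (7 to 12 counts). The exact permutation test (two-sided) gave p = 0.1, the smallest that 3 against 3 libraries allow. Leaving out library 1 of KO reduced the difference to 2.29 (edgeR adjusted p = 0.12), and the call was kept only when library 2 of KO was the one left out. Ltf was 3.27-fold higher in the KO mean, but its libraries overlapped (log2 1.71 ± 0.55, edgeR adjusted p = 0.11), and without library 1 of KO the difference was 0.74 and the ratio of means 1.67. Ftl1 was 1.21-fold higher and its groups did not overlap (log2 0.28 ± 0.08, edgeR adjusted p = 0.097). With DESeq2 it passed (adjusted p = 0.041). Trf (0.36), Slc40a1 (0.22), Slc11a1 (0.55) and Slc39a11 (-0.04) did not pass, and their groups overlapped. Among the 45 further iron genes, Fth1 was higher in KO by 1.0 ± 0.21 (edgeR adjusted p = 0.038), with WT libraries from 85.3 to 152.9 CPM and KO libraries from 177.8 to 245.9 CPM. Fbxl5 was lower by -0.71 ± 0.13 (edgeR adjusted p = 0.026). Erythroid markers, which hold globin genes, were also higher in KO transitional cells, for 6 of 9 tested (edgeR, adjusted p under 0.05), with summed levels of 3027, 3984 and 2289 CPM in WT and 8872, 4456 and 9538 CPM in KO. Of 13 neutrophil markers 1 was called, the granule gene Camp, higher by 2.39 ± 0.56 (edgeR adjusted p = 0.049). Of 5 plasma cell markers 1 was called, the antibody joining chain Jchain, higher by 2.35 ± 0.42 (edgeR adjusted p = 0.026), and the summed level of this list was 669.1, 605.9 and 428.7 CPM in WT and 2810, 1086 and 4567 CPM in KO. Of 10 T-cell markers 1 was called, the costimulatory receptor gene Cd28, higher by 1.34 ± 0.25 (edgeR adjusted p = 0.028). Among markers of B-cell subsets, the transitional marker Cd24a (-0.87, edgeR adjusted p = 0.026) and the marginal zone marker Cd1d1 (-0.69, 0.013) were lower in KO. The follicular marker Ighd (0.56, 0.030) was higher, and the other tested markers of these 3 lists did not pass. The part of these cells in the differences was not tested.

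In CD40L-treated cells 0.0227% of 13188 genes tested were called, and 0 of the 5 members that could be tested. Lcn2 (2.0 ± 0.88, edgeR adjusted p = 0.70) and Ltf (2.5 ± 0.74, edgeR adjusted p = 0.54) had the largest differences, and their KO and WT libraries overlapped. Ftl1 was at 0.27 ± 0.14 (edgeR adjusted p = 0.74), Slc39a11 at 0.29 ± 0.38 and Slc11a1 at -0.54 ± 0.66, all with overlap. Trf and Slc40a1 were below the filter on low counts. Trf had 5, 5 and 21 counts in the KO libraries and 0 in each WT library, so that KO was at least 3.50-fold higher against the floor of 3 counts per library. Most of these counts came from library 3 of KO, and without it the bound was 1.91-fold. At an unadjusted p under 0.05, 932 genes passed in this comparison, and DESeq2 called 79 genes but 0 of the tested members.

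**Figure D5:**
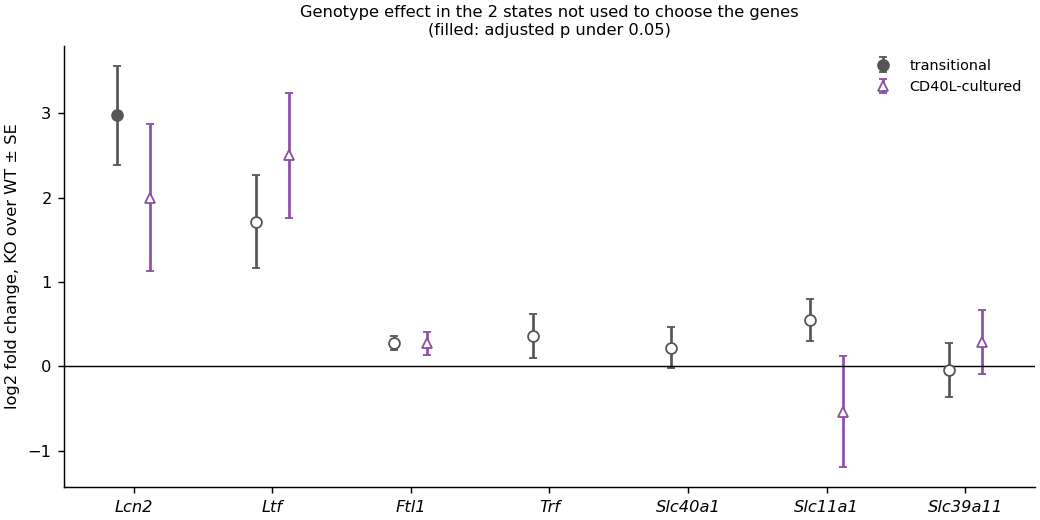
log2 fold changes of KO over WT (vertical axis, edgeR fits within each state, bars are standard errors) for the 7 genes in transitional and in CD40L-treated cells, the 2 states not used to choose the genes. Lcn2 in transitional cells is the 1 filled symbol (adjusted p under 0.05); Trf and Slc40a1 have no value in CD40L-treated cells because their counts are at or near 0.

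When the genotype effects of transitional and CD40L-treated cells were averaged in the fit of 18 libraries, 4.91% of 15117 genes were called. Of the 7 members 4 were called, all higher in KO, and 3 of these have counts in both genotypes of both states. These 3 were Lcn2 (2.48 ± 0.62, adjusted p = 0.031), Ltf (2.10 ± 0.56, adjusted p = 0.040) and Ftl1 (0.26 ± 0.07, adjusted p = 0.040, edgeR). The call of Trf rests on WT CD40L-treated libraries with 0 counts, in a state where the gene was below the filter, and is not read as an effect. Slc40a1, also below the filter there, Slc39a11 (0.11 ± 0.27) and Slc11a1 (0.00 ± 0.58) did not pass. Without library 1 of KO in each state, Lcn2 was at 1.62 (edgeR adjusted p = 0.18), Ltf at 1.29 (edgeR adjusted p = 0.18) and Ftl1 at 0.22 (edgeR adjusted p = 0.20), so that none of the 3 passed. When single libraries were left out, Lcn2 and Ltf each passed in 5 of 12 fits and Ftl1 in 3. With RLE size factors Ftl1 did not pass (0.24, edgeR adjusted p = 0.051). In exact permutation tests within states (two-sided), p was 0.01 for Lcn2, 0.02 for Ftl1 and 0.03 for Ltf, with 0.005 as the smallest possible. These tests and the fit treat libraries of different states as independent. If same-numbered libraries shared a mouse, the p-values would be too small. With the libraries of one genotype and number moved together, the exact permutation test gave p = 0.1 for each of the 3 genes, the smallest that its 20 arrangements allow. In the same average, 5 of 13 neutrophil markers and 5 of 10 T-cell markers were higher and 4 of 8 B-cell markers lower in KO. Of all genes tested, 2.26% were higher and 2.65% lower. The neutrophil list holds Elane, Mpo, Mmp9, Cxcr2, Csf3r and Fcnb and the T-cell list Cd4 and Cd8a, all below the filter within CD40L-treated cells. The counts of these 2 lists are therefore given as a description only. Of the further iron genes, Fth1 was higher (0.98 ± 0.25) and Fbxl5 (-0.44), Hmox2 (-0.33) and Alad (-0.30) were lower (edgeR, adjusted p under 0.05).

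The difference of the genotype effects between CD40L-treated and transitional cells was tested directly. With edgeR 0 of 15117 genes were called (0%), 918 passed at an unadjusted p under 0.05, and DESeq2 called 22. The 1 member among those 22 was Trf, with 0 counts in the WT CD40L-treated libraries, so that for Trf this is no usable test. An effect past the threshold in transitional cells is not shown to differ from that in CD40L-treated cells.

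Across all 18 libraries the 7 genes fell into patterns that can be described by Pearson's r of log2 CPM, without a test, since the libraries share states and depth. Trf and Slc40a1 had r = 0.975, Trf and Slc11a1 0.910, Slc40a1 and Slc11a1 0.903, and Lcn2 and Ltf 0.906. Ftl1 and Slc39a11 had r = 0.683, and Slc39a11 and Slc40a1 -0.710. Among 12915 genes with a mean of at least 1 CPM, the 5 most like Slc40a1 were C1qb, Fcna, Pilrb1, Abcg3 and Hfe (r from 0.986 to 0.990). Those most like Trf were Clec4a1, Trpm2, Ube2h, Fcer1g and Fcna (0.980 to 0.985), and those most like Slc11a1 were Spic, Hmox1, Ighv7-3, Nr1h3 and Adap2 (0.958 to 0.976). For Lcn2 they were Camp, Ngp, S100a9, Prss34 and S100a8 (0.907 to 0.945), and for Ltf Ngp, S100a8, S100a9, Camp and Lcn2 (0.906 to 0.942). Of these, C1qb and Spic are on the macrophage list, and Camp, Ngp, S100a8 and S100a9 on the neutrophil list. Ftl1 was most like its near copy Ftl1-ps1 (0.965), followed by Rogdi, Tceal9, Slc44a1 and Socs2, and Slc39a11 was most like Pgd (0.950), Eif3h, Wdr6, Eya3 and Cul1. None of these 10 genes is on a list of markers of other cell types.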

How the data were processed

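The authors deposited a table of expected counts, TPM and FPKM per gene for the 18 libraries, and all 54 columns were matched to libraries by name. The submitters' processing notes name cutadapt 1.9.1, STAR 2.5.2a, RSEM 1.3.0 and GRCm38, whereas the methods name other tools, and library kits also differ between labels and methods. The deposited expected counts are estimates (10.3% to 11.6% of values not whole) without normalization. The deposited TPM are the authors' length-scaled shares of a library. The deposited FPKM are the authors' values per length and library size and were not used.

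Expected counts were rounded. Tests used R 4.3.3, edgeR 4.0.16 and limma 3.58.1: TMM, filterByExpr by group, glmQLFit and glmQLFTest, Benjamini-Hochberg adjustment over all genes tested and a threshold of 0.05. Genotype effects were fitted within states, all others on 18 libraries with 1 coefficient per group. The SE is the log2 fold change divided by the root of F. log2 CPM used a prior count of 2. Counting intervals are exact (Clopper-Pearson, 95%). The scripts were tested on simulated counts. Whether replicate numbers pair libraries was checked by the correlation of deviations from the group means. Between transitional and follicular libraries of one genotype all 6 same-numbered pairs were over 0.1 (0.103 to 0.263), against at most 0.035 for other pairs, so these were taken as paired, on the data alone. It was over 0.1 in 4 of 6 pairs of follicular with CD40L-treated, 3 of 6 of transitional with CD40L-treated and 1 of 9 of WT with KO libraries. Gene positions came from GENCODE M21, which lists 51719 of the 51912 identifiers. Named genes are the members, iron and SLC39 genes past the threshold (in genotype comparisons all, in state comparisons, per direction, the 3 that ranked first by adjusted p), and the 5 genes most like each member. The storage, uptake and sensing genes named beyond this were chosen after their values were seen. Members, lists and tests were chosen with earlier results of these data known. Alternatives were DESeq2 1.42.0, RLE size factors, all genes with at least 1 count, a replicate block, 12 libraries in place of 18, leaving out single libraries, TPM in place of CPM and, added after the data had been seen, leaving out library 1 of KO in each state.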

Additional observations from a re-analysis of the deposited data

How the results depend on the processing

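In follicular against transitional cells 3679 genes were called by edgeR, and 2388 without library 1 of KO. The ranges on leaving out single libraries were 2777 to 3543 genes there, 8689 to 9239 in CD40L-treated against follicular cells and 8876 to 9300 in CD40L-treated against transitional cells. The count of members stayed at 4 and at 7 in the former pair of comparisons and was 5 to 7 in the last. Genotype effects depended more on the processing. In transitional cells (514 genes and 1 member), DESeq2 called 1340 genes and 2 members (Ftl1 besides Lcn2), all genes with at least 1 count gave 1426 and 3 (also Ltf), leaving out library 1 of KO gave 56 and 0, and leaving out single libraries gave 28 to 479 genes and 0 to 2 members. In CD40L-treated cells (3 genes, 0 members), DESeq2 called 79 genes, all genes with at least 1 count gave 216 and 2 members (Ltf and Trf), leaving out library 1 of KO gave 1, and single libraries 1 to 9. In follicular cells (115 genes), the counts were 352, 602, 32 and 32 to 112. For the average over transitional and CD40L-treated cells (742 genes, 4 members), they were 1694, 1566, 185 (1 member, Trf) and 299 to 1732 (0 to 4 members). For the difference between those states (0 genes), DESeq2 called 22, all genes with at least 1 count gave 134, each with 1 member (Trf), and single libraries gave 0 to 2.

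The pairing by replicate number held for follicular against transitional cells, where the block gave 3646 genes and the same count of 4 members, all lower, and changed no call of a member. Between CD40L-treated cells and the other states not every pair was over 0.1, although all 6 same-numbered pairs of follicular with CD40L-treated libraries (0.03 to 0.224) lay above the other pairs (at most 0.01), a hint from the data and not the design. WT and KO libraries share only a number. In both comparisons of CD40L-treated cells the block also gave 7 members, a count that, here and above, includes Trf and Slc40a1 with counts at or near 0. With the replicate number as a block, the genotype effect called 90 genes and 0 members in transitional, 21 genes in CD40L-treated and 212 genes in follicular cells.

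Signs changed mainly for values near 0. For Slc39a11 they did in transitional genotype effects (0.017 with the block, 0.11 without library 1 of KO, -0.33 to 0.17 without single libraries) and in follicular against transitional cells (0.0039 with the block, -0.19 to 0.11). For Slc11a1 the averaged genotype effect was -0.024 with DESeq2, -0.019 with RLE, -0.018 with the block and -0.52 to 0.18 without single libraries. Slc39a11 there was -0.057 to 0.28. The averaged value of Slc40a1, which rests on 1 WT and 9 KO counts in CD40L-treated cells and is not usable, was -0.83 without library 1 of KO and -0.81 to 2.45 without single libraries. Further ranges were -0.061 to 0.45 for Slc40a1 in transitional genotype effects, -0.059 to 0.62 for Slc39a11 in CD40L-treated genotype effects and -0.071 to 0.92 for Ltf in follicular against transitional cells. The causes were not tested. In TPM all 21 ratios between states stayed within the spread between libraries, but 5 that rest on low counts moved by over 1.5 times. The ratio of CD40L-treated cells to follicular and to transitional cells was 2.97 and 2.88 times that in CPM for Slc40a1 and 2.08 and 2.27 times for Trf, and that to transitional cells 1.54 times for Slc11a1. Low counts limit Lcn2 in WT and, after culture, Trf, Slc40a1 and Slc11a1.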
